A study of Mus musculus with 32 samples.

Results

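The retinoid genes described here are 8 rows of a kidney cortex RNA-Seq table, found by their symbols: *Rbp4*, *Dhrs3*, *Aldh1a1*, *Aldh1a2*, *Aldh1a3*, *Aldh1a7*, *Cyp26b1* and *Rarb*. All 8 were present among the 32544 genes of the table. The libraries came from 32 mice of the strain C57BL/6J-Col4a3tm1Dec, killed at 25 weeks, in 8 groups of 4 set by sex, genotype and diet. Control mice were heterozygous (*Col4a3*+/-), so they also carry 1 disrupted copy of this chain of glomerular basement membrane collagen, and Alport mice were homozygous (*Col4a3*-/-), a model of inherited progressive kidney disease. Vehicle-treated mice ate a purified diet, and NR-treated mice ate the same diet with nicotinamide riboside, a precursor of NAD+, at 0.5% w/w from 10 weeks of age. The study asked how renal metabolism changes with the disease and with NAD+ supplementation in each sex.

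Retinoids are derivatives of vitamin A. Retinol circulates bound to the carrier encoded by *Rbp4*, is oxidised inside cells to retinal and then irreversibly to retinoic acid by NAD-dependent retinaldehyde dehydrogenases (*Aldh1a1*, *Aldh1a2* and *Aldh1a3*), and retinal can be reduced back to retinol by the enzyme that *Dhrs3* encodes. Retinoic acid binds nuclear retinoic acid receptors, of which *Rarb* encodes 1 and is itself a classical target, and it is inactivated by cytochrome P450 enzymes such as the product of *Cyp26b1*. In the kidney, retinoic acid acts in nephron and collecting duct development, and proximal tubule cells take up filtered retinol with its carrier.

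*Aldh1a1* and *Aldh1a7* are near copies, and their sequences are shown because reads from 1 can be assigned to the other. They lie side by side on opposite strands of mouse chromosome 19 (GRCm38, GENCODE M21), *Aldh1a1* at chr19:20492715-20643465 on the plus strand and *Aldh1a7* at chr19:20692953-20727562 on the minus strand. Their coding sequences of 1503 bases are identical at 1377 positions (91.6%), while the other pairs of the 4 dehydrogenase genes reach 65.5%–67.7%. Of the 2017 stretches of 50 bases in the *Aldh1a7* transcript, 151 (7.49%) also occur in *Aldh1a1*, and none of the stretches of *Aldh1a2* or *Aldh1a3* do. The first 90 coding bases are identical at 85 positions, with the differing bases in capitals.
Aldh1a1 coding: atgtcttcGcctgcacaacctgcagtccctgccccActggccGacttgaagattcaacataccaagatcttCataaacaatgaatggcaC
Aldh1a7 coding: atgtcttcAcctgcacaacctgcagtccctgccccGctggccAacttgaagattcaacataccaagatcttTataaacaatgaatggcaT

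The likeness goes on upstream of the genes. In the 100 bases before a RefSeq transcript start of each gene (GRCm38.p6), chr19:20601868-20601967 on the plus strand for *Aldh1a1* and chr19:20727557-20727656 on the minus strand for *Aldh1a7*, 94 are identical, and capitals again mark the differing bases.
Aldh1a1 upstream: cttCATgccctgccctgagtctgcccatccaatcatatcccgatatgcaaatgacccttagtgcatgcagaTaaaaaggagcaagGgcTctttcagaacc
Aldh1a7 upstream: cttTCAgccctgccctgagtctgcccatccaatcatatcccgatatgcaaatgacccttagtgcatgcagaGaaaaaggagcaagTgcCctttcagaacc

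The upstream sequence of *Rarb* is shown because a retinoic acid response element there is the textbook example of retinoid control. RefSeq windows from 250 bases before to 50 bases after a transcript start were at hand for 7 of the 8 genes (11 windows), and they were searched on both strands for direct repeats spaced by 1, 2 or 5 bases. Each unit of a repeat could be the consensus AGGTCA or a variant of it, which was AGTTCA when the third base changed, GGGTCA when the first base changed and GGTTCA when both did. *Rarb* was the 1 gene of the 7 with a match, with a spacing of 5 bases, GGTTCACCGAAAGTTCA at chr14:16575513-16575529, which ends 36 bases before the start. Such a repeat with spacing 5 was found in 32 of 32851 windows (0.0974%), and spacings of 1 and 2 in 0.222% and 0.268%. A match is a description of these letters and not a measured binding site. The 100 bases before this start, chr14:16575477-16575576 on the minus strand, follow with both units of the repeat in capitals.
Rarb upstream: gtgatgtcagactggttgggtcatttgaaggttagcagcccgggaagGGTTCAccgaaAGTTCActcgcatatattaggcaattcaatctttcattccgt

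Levels are CPM, that is counts relative to library size, scaled between libraries by the trimmed mean of M values (TMM), and the libraries held 16621944–27778797 counts. Changes are log2 fold changes (log2FC) ± SE from edgeR's quasi-likelihood test in the 8 mice of a comparison, with p-values adjusted by the Benjamini-Hochberg method over all genes tested, and a change was called at an adjusted p under 0.05. The 8 genes were picked with results of these data known, and the comparison that guided the choice is not recorded, so their adjusted p-values describe the fits and are not independent evidence. *Col4a3* mRNA, which is reduced but not lost in this model, was lower in vehicle-treated Alport mice of both sexes (log2FC −1.40 in males and −1.19 in females, edgeR adjusted p = 7.25e-06 and 3.57e-05). The 4 NR-treated male controls ranged from 59.3 to 160 CPM of *Col4a3* and overlapped the Alport mice. A library stood apart within its group, since NR-treated male Alport replicate 1 had a summed level of 10 fibroblast markers of 1963 CPM, against 418–655 CPM in the other 3 mice, and an immune marker sum of 685 CPM against 124–261 CPM. Within this group the proximal tubule sum was 5022 CPM in replicate 1 and 3678 CPM in replicate 3, against 13735 and 13209 CPM in replicates 2 and 4, and replicate 3 had the highest *Aldh1a1*, *Aldh1a7* and *Cyp26b1*.

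Per kilobase of exon, *Dhrs3* had group means of 35.1–85.4 CPM per kb and was the most abundant of the 8 genes in 7 of the 8 groups. The exception was the NR-treated male Alport group, where *Aldh1a1* reached 57.3 and *Dhrs3* 49.8 CPM per kb. The means ranged over 9.88–61.4 CPM per kb for *Aldh1a1*, 7.59–36.3 for *Aldh1a7*, 1.03–11.7 for *Cyp26b1*, 1.99–4.07 for *Rarb* and 0.781–16.1 for *Aldh1a2*. *Aldh1a3* (0.186–0.745) and *Rbp4* (0.0586–0.550 CPM per kb) were the least abundant, and *Rbp4* rested on 0–26 counts per library. *Aldh1a2* had group means from 1.77 to 36.5 CPM. When the 8 groups were ordered by their mean, neighbouring groups overlapped in nearly all steps, and the ranges separated at 1 of 7 steps for *Aldh1a1*, *Aldh1a2*, *Aldh1a3* and *Aldh1a7* and at none for the other genes. For *Aldh1a1* the break lay between the 4 NR-treated groups (means of 85.6–147 CPM) and the 4 vehicle-treated groups (23.7–43.7 CPM). For *Aldh1a3* it lay between NR-treated female Alport mice and NR-treated male controls, with means of 2.70–3.30 CPM in the 4 Alport groups and 0.824–1.46 CPM in the 4 control groups, although single mice of non-neighbouring groups overlapped.

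**Figure D1:**
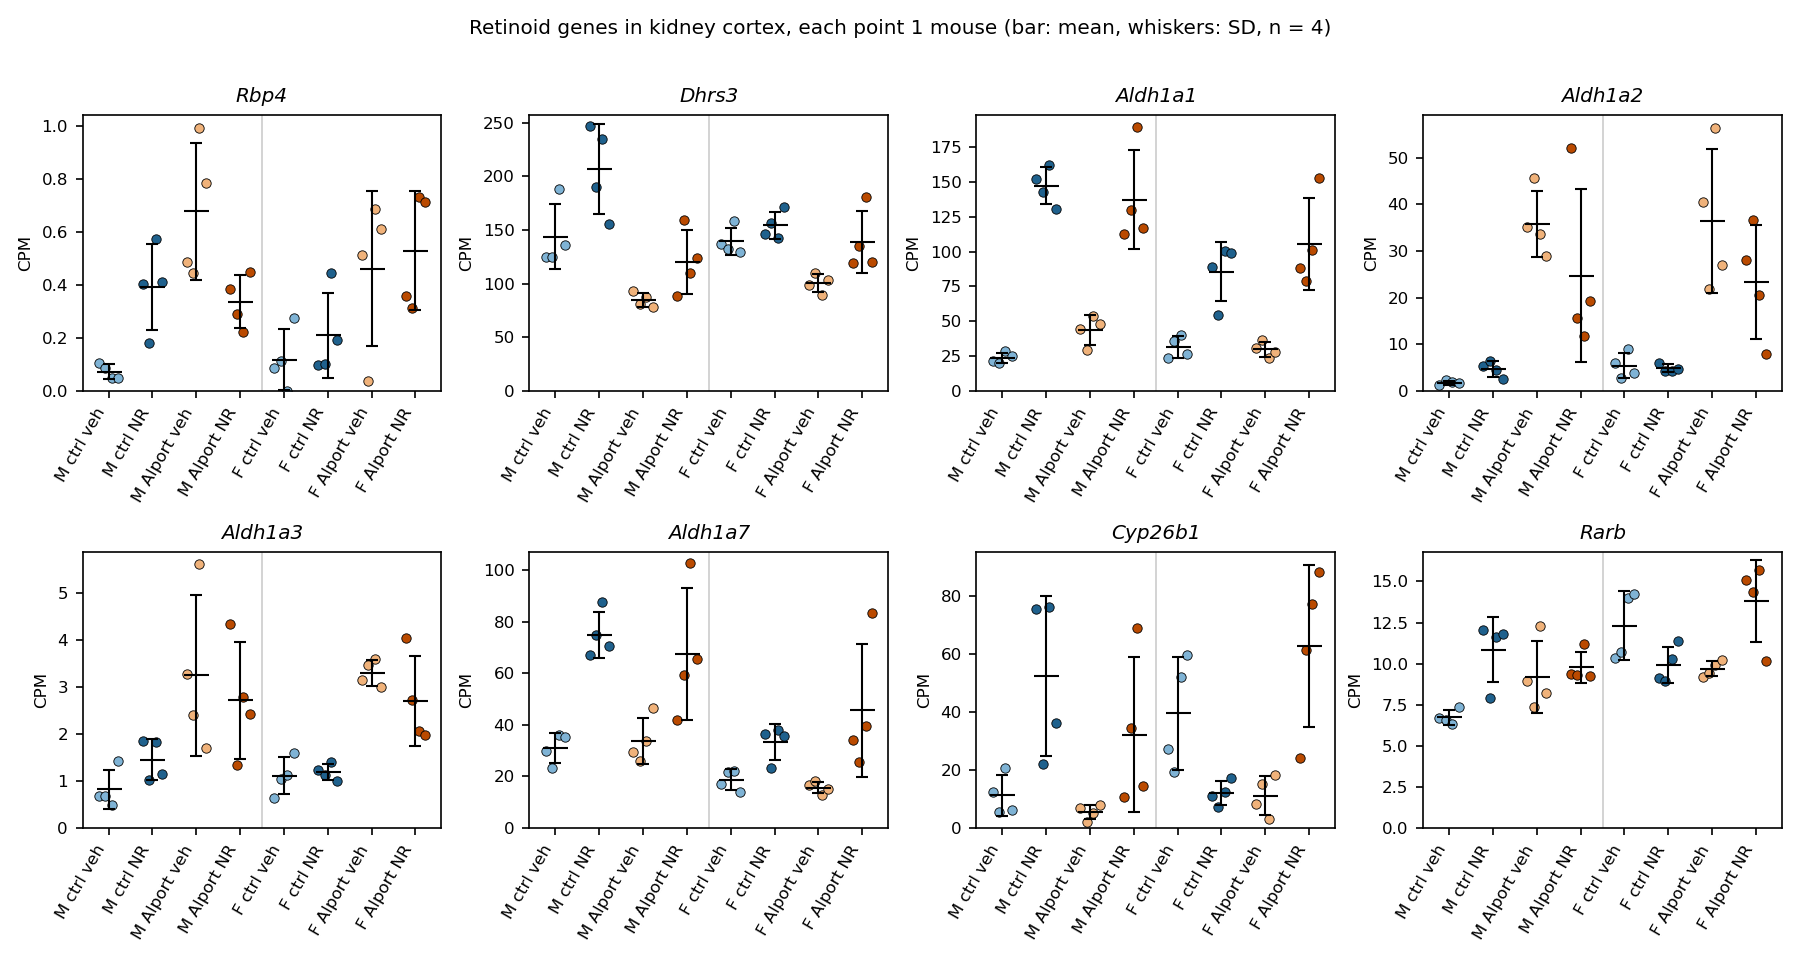
CPM (linear axes from 0) of the 8 retinoid genes in each mouse, by sex, genotype and treatment (M, male; F, female; ctrl, control; veh, vehicle), with the mean and SD of 4 mice. *Aldh1a1* is higher in all 4 NR-treated groups than in the vehicle-treated ones, *Aldh1a2* and *Aldh1a3* have higher means in the 4 Alport groups, and *Cyp26b1* is higher with NR in 3 pairs of groups and lower in female controls.

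Comparing Alport with control mice on vehicle, the 2 dehydrogenase genes *Aldh1a2* and *Aldh1a3* rose and *Dhrs3* fell in both sexes. *Rbp4* passed the low-count filter in males only through the Alport group and is left out of the counts. The edgeR test called 5 of the other 7 genes in males, 4 higher and 1 lower, where 51% of all 15286 genes tested were called (26.8% higher and 24.2% lower). In females it called 4 of the 7 genes tested, 2 higher and 2 lower, where 45.8% of 15709 genes were called (24% higher and 21.8% lower). The 4 mice of each group did not overlap for 4 genes in males and 5 in females, against 50.6% of all genes in males (22.1% higher and 28.5% lower) and 44.4% in females (20.7% and 23.7%). A large share of all genes was thus called here, and the counts of members say little beside it. The largest change was that of *Aldh1a2*.

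*Aldh1a2* encodes the main retinoic acid-forming enzyme of the embryo and of stromal and mesothelial cells. In vehicle-treated males it was at 1.22, 2.27, 1.82 and 1.76 CPM in controls and at 35.1, 45.7, 33.6 and 29.0 CPM in Alport mice, 21.2-fold higher (log2FC 4.41 ± 0.19, edgeR adjusted p = 1.79e-08). In vehicle-treated females it was at 6.08, 2.74, 8.98 and 3.89 CPM in controls and at 40.5, 21.8, 56.5 and 27.003 CPM in Alport mice, 6.88-fold higher (log2FC 2.78 ± 0.38, adjusted p = 0.000259). Every Alport mouse lay above every control of its sex, and the Alport levels were alike in the sexes while the control levels were not. The difference between the sexes in the Alport effect was −1.66 ± 0.48 on the log2 scale (female minus male) and did not pass the test (edgeR interaction, adjusted p = 0.151).

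*Aldh1a3*, the dehydrogenase of developing sensory epithelia, was far less abundant. Male controls had 0.691, 0.684, 0.493 and 1.43 CPM and male Alport mice 3.28, 2.39, 5.61 and 1.70 CPM (log2FC 2.06 ± 0.42, edgeR adjusted p = 0.00159). Female controls had 0.643, 1.05, 1.14 and 1.60 CPM and female Alport mice 3.15, 3.47, 3.60 and 3.01 CPM (log2FC 1.62 ± 0.25, adjusted p = 0.000522). The groups did not overlap in either sex, and the 4 female Alport mice were close together.

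*Dhrs3*, the retinal reductase, was lower by a smaller step. In males the controls had 125, 125, 188 and 136 CPM and the Alport mice 92.7, 80.6, 87.8 and 78.3 CPM, 1.60-fold lower (log2FC −0.67 ± 0.13, edgeR adjusted p = 0.000856). In females the controls had 137, 132, 158 and 129 CPM and the Alport mice 99.2, 110, 89.2 and 104 CPM, 1.35-fold lower (log2FC −0.43 ± 0.09, adjusted p = 0.00296). Again no Alport mouse reached the lowest control of its sex.

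The cytosolic dehydrogenase *Aldh1a1* rose in male Alport mice, from 21.6, 19.9, 28.4 and 24.8 CPM to 44.3, 29.0, 53.9 and 47.7 CPM (log2FC 0.97 ± 0.17, edgeR adjusted p = 0.000573). In females the values were 23.7, 35.6, 40.0 and 26.6 CPM in controls and 31.0, 36.9, 23.9 and 28.0 CPM in Alport mice, with overlapping groups (log2FC −0.04 ± 0.18, adjusted p = 0.882). The test of the difference between the sexes gave −1.04 ± 0.28 (edgeR adjusted p = 0.111), so a sex difference was not called. Its near copy *Aldh1a7*, whose product has little known activity on retinal, gave log2FC 0.21 ± 0.18 in males and −0.22 ± 0.16 in females (edgeR adjusted p = 0.349 and 0.277). The ratio of *Aldh1a1* to *Aldh1a7* counts in vehicle-treated males was 0.768 ± 0.0681 in controls and 1.31 ± 0.278 in Alport mice (SD, n = 4), without overlap.

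*Cyp26b1*, which clears retinoic acid, fell in female Alport mice from 27.2, 19.3, 52.2 and 59.8 CPM to 8.28, 15.2, 3.12 and 18.2 CPM, 3.48-fold lower (log2FC −1.80 ± 0.49, edgeR adjusted p = 0.0118). In males the controls had 12.4, 5.68, 20.8 and 6.04 CPM and the Alport mice 6.76, 2.15, 5.27 and 7.84 CPM, with overlap (log2FC −0.94 ± 0.43, adjusted p = 0.0925). Without vehicle-treated male control replicate 2, the lowest control, the male difference was called (log2FC −1.17, edgeR adjusted p = 0.0432). The other 7 fits without 1 mouse gave no call. The sexes were not shown to differ (interaction −0.89 ± 0.74, edgeR adjusted p = 0.727).

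*Rarb* pointed in different directions. Male controls had 6.70, 6.58, 6.31 and 7.38 CPM and male Alport mice 8.95, 7.34, 12.3 and 8.19 CPM, a rise that was called although 1 Alport mouse lay within the controls (log2FC 0.53 ± 0.16, edgeR adjusted p = 0.0170). Female controls had 10.3, 10.7, 14.0 and 14.2 CPM and female Alport mice 9.18, 9.42, 9.91 and 10.2 CPM, lower without overlap but not called (log2FC −0.31 ± 0.13, adjusted p = 0.0729). Leaving out female control replicate 1 or replicate 2 turned the female difference into a call (edgeR adjusted p = 0.0331 and 0.0481). They were the 2 lowest controls, so leaving out either widens the difference by construction. The other 6 fits without 1 mouse gave no call. The interaction was −0.88 ± 0.21 and did not pass (edgeR adjusted p = 0.0829).

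*Rbp4*, the plasma carrier made mainly in liver, was close to the floor. Vehicle-treated male controls had 2, 2, 1 and 1 counts and vehicle-treated male Alport mice 12, 11, 26 and 18 counts. Its call (edgeR adjusted p = 0.000241) rests on the filter passed through the Alport group, and no fold change is given for so few control reads. Vehicle-treated females had 2, 3, 0 and 6 counts in controls and 16, 1, 20 and 14 in Alport mice, and the gene was not tested there.

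Markers of other cell types moved with these genes. In both sexes 9 of 9 proximal tubule markers were lower, 6 of 6 tubule injury markers and 10 of 10 fibroblast markers were higher, and 8 (males) and 7 (females) of 8 immune markers were higher. Podocyte markers (5 of 6 in each sex) and endothelial markers (males 6 of 7, females 4 of 7) were also higher, and 5 of 8 distal nephron markers were lower in each sex. The summed fibroblast level was 124–143 CPM in vehicle-treated male controls and 987–1607 CPM in male Alport mice, and 159–253 and 816–1313 CPM in females. The summed level of 9 proximal tubule markers was 17820–20293 and 6222–10215 CPM in males, and 14107–17195 and 6303–10262 CPM in females. Their part in the changes of *Aldh1a2*, *Aldh1a3* and *Dhrs3* was not tested, and in bulk tissue fewer cells of a type and less RNA per cell cannot be told apart. Mesothelial cells are another known site of *Aldh1a2*, and the 5 mesothelial markers summed to at most 6.64 CPM in any library, with 1 of the 5 at 0 in all mice of both male vehicle-treated groups. The median of their sum was higher in Alport mice of both sexes. In males the medians were 0.406 and 0.973 CPM, with overlapping ranges of 0.143–0.513 and 0.479–6.64 CPM, and no marker was tested. In females the ranges were 0.503–0.980 and 1.20–1.96 CPM, and the 1 marker tested was called higher (log2FC 1.90).

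**Figure D2:**
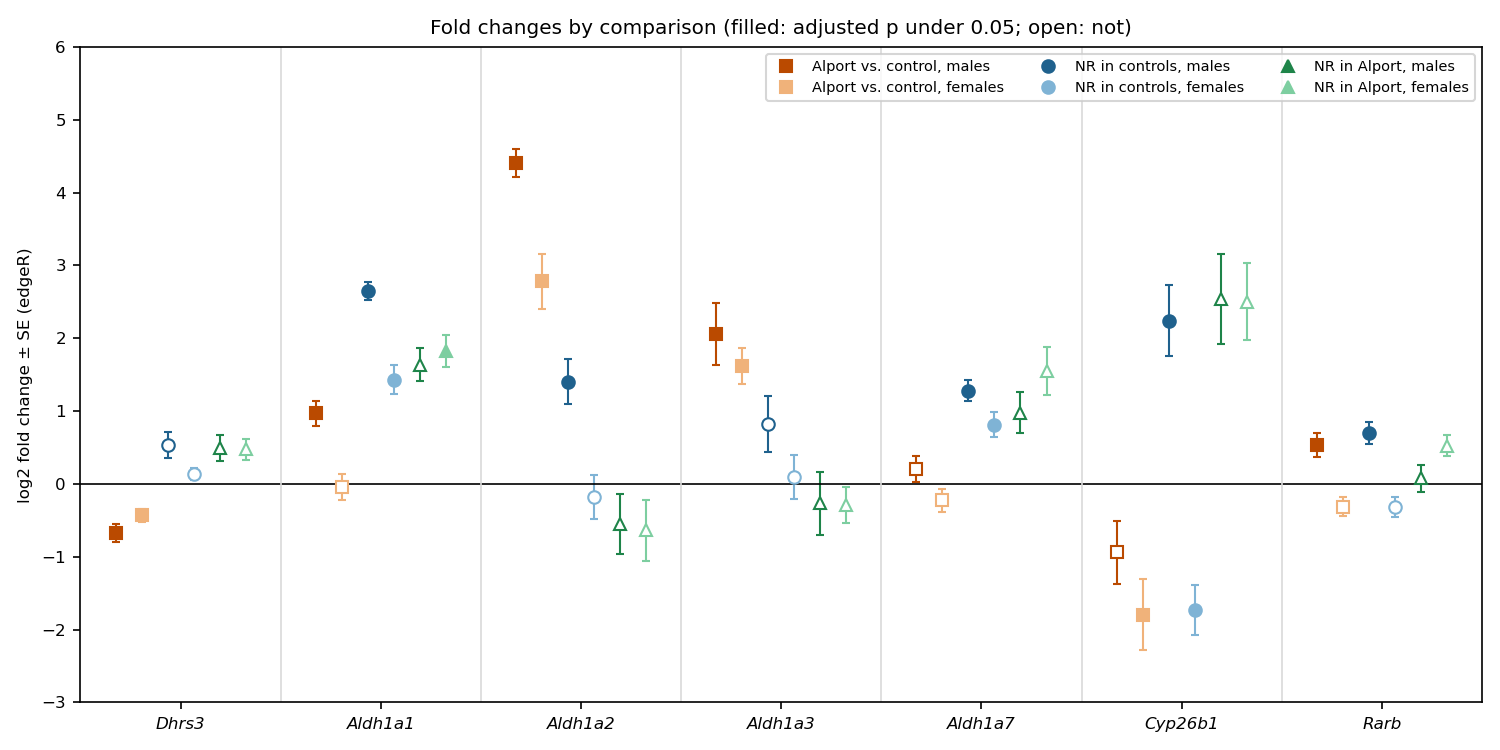
Log2 fold change ± SE (edgeR) of 7 retinoid genes in 6 comparisons of 4 against 4 mice, with called changes filled and the others open; *Rbp4* is left out for its low counts. *Aldh1a1* is above 0 with NR in all 4 groups (1.43–2.65), *Aldh1a2* and *Aldh1a3* are highest in the Alport comparisons, and *Cyp26b1* in controls lies at 2.24 in males and −1.73 in females.

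The wider retinoid pathway moved in both directions with disease. Of 54 other retinoid genes listed, 53 were in the table and 39 were tested in males, where 16 were higher and 11 lower (69.2% called, against 51% of all genes). In females 43 were tested, and 13 were higher and 11 lower (55.8%, against 45.8%). The median log2FC of the list was 0.15 in males and 0.03 in females, and that of all genes was −0.0013 and −0.000835. The 39 genes tested in both sexes included 21 called in both, each in the same direction.

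Binding and uptake genes were mostly higher, with 6 of 7 tested higher in males and 5 of 7 in females. Of those tested, 100% and 85.7% were called, against 51% and 45.8% of all genes. *Stra6*, the membrane receptor for the retinol carrier, had a mean of 2.58 ± 0.740 CPM in male controls and 40.1 ± 6.29 CPM in male Alport mice (SD, n = 4), and 8.09 ± 5.44 and 38.0 ± 11.6 CPM in females (log2FC 4.05 ± 0.19 and 2.26 ± 0.40, edgeR adjusted p = 2.74e-08 and 0.00105). *Ttr*, the plasma partner of the carrier, rose by log2FC 1.52 ± 0.14 in males and 1.37 ± 0.17 in females. *Stra6l*, a relative of *Stra6*, rose by 1.26 ± 0.18 in females and 1.12 ± 0.17 in males. The 1 gene of this group that fell in both sexes was *Lrp2*, which encodes megalin, the tubular receptor that retrieves filtered carrier proteins (log2FC −1.14 ± 0.14 and −1.09 ± 0.17).

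Storage and cleavage genes were lower where they were called, 3 of 5 in each sex and none higher (60%, against 51% and 45.8% of all genes). They were *Retsat*, retinol saturase (log2FC −1.02 ± 0.16 in males and −1.15 ± 0.20 in females), *Bco2*, a carotenoid cleavage enzyme (−1.10 ± 0.10 and −0.98 ± 0.20), and *Lrat*, which makes retinyl esters (−0.69 ± 0.23 and −0.84 ± 0.20). The retinol and retinal dehydrogenases split, with 4 higher and 5 lower of 14 in males and 3 higher and 5 lower of 16 in females (64.3% and 50% called). *Rdh16* fell in both sexes (−1.09 ± 0.10 and −0.90 ± 0.13), while *Rdh12* rose (0.90 ± 0.35 and 0.88 ± 0.27). *Rdh10*, which performs the first oxidation of retinol in development, rose by 0.36 ± 0.11 in males and 0.58 ± 0.08 in females. *Rdh7* fell in females (−1.44 ± 0.49) and was at −0.62 ± 0.44 in males, uncalled. *Rdh5* and *Adh7* fell in males (−0.77 ± 0.14 and −0.74 ± 0.27) and were at −0.72 ± 0.28 and 0.53 ± 0.42 in females, uncalled.

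Beside *Cyp26b1*, the related *Cyp26a1* rose in males (log2FC 1.41 ± 0.34, edgeR adjusted p = 0.00406) from 0.551 ± 0.147 to 1.39 ± 0.432 CPM (SD, n = 4) and was not called in females (0.68 ± 0.40, adjusted p = 0.191). *Aldh8a1*, an enzyme for the 9-cis form of retinal, fell in both sexes (−1.03 ± 0.13 and −1.04 ± 0.13). Among the receptors, *Rara* (0.56 ± 0.09 and 0.43 ± 0.08) and *Rarg* (0.91 ± 0.19 and 0.45 ± 0.13) were higher and *Rxra*, the partner receptor, lower (−0.49 ± 0.10 and −0.41 ± 0.08). Of 10 genes listed as retinoic acid targets, 3 of 7 tested in males and 3 of 8 in females were higher and none lower. These shares, 42.9% and 37.5%, lay below the 51% and 45.8% of all genes called. The 3 genes were *Rarres1* (1.58 ± 0.36 and 0.90 ± 0.23), *Rarres2*, which encodes chemerin (1.21 ± 0.13 and 0.89 ± 0.25), and *Tgm2*, tissue transglutaminase (0.62 ± 0.10 and 0.47 ± 0.10).

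**Figure D3:**
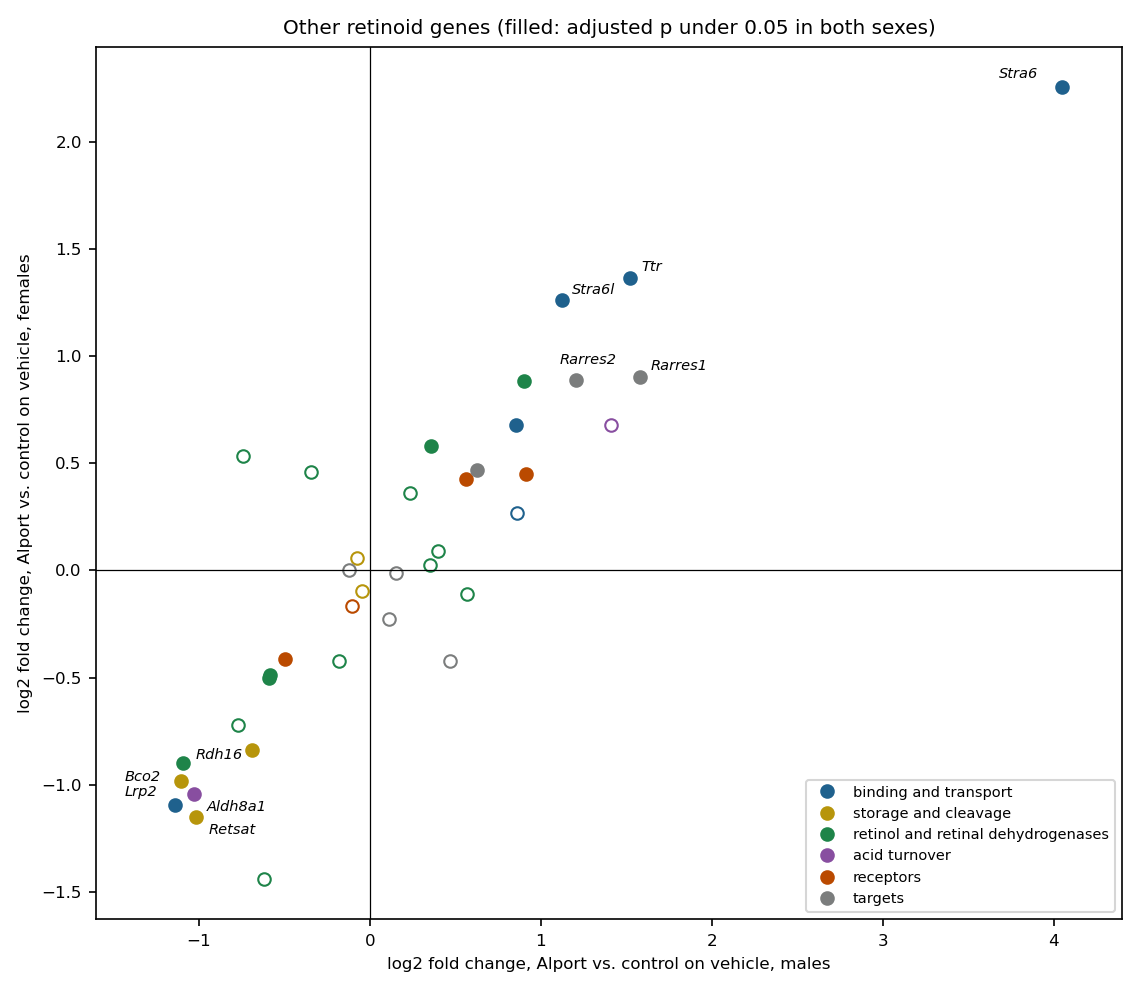
Log2 fold change of 38 of the 39 other retinoid genes tested in both sexes in Alport (vs. control) mice on vehicle, males on the horizontal and females on the vertical axis, coloured by role and filled where called in both sexes (20 genes). Binding and transport genes lie at the upper right with *Stra6* farthest out (4.05 and 2.26), and *Retsat*, *Bco2*, *Rdh16*, *Aldh8a1* and *Lrp2* lie at the lower left.

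In control mice, *Aldh1a1* had the largest change with NR among the 7 genes tested in males. In male controls the edgeR test called 5 of 7 genes tested, all higher, where 4.53% of 14696 genes were called (3.07% higher and 1.46% lower). The groups of 5 genes did not overlap, which held for 13.4% of all genes (7.35% higher and 6.01% lower). In female controls it called 2 genes higher and 1 lower of 7, where 6.18% of 14951 genes were called (3.91% higher and 2.27% lower), and 3 genes did not overlap, against 14.6% of all genes (8.53% higher and 6.08% lower). *Aldh1a1* and *Aldh1a7* rose in both sexes, and *Cyp26b1* was called in opposite directions. *Col4a3* in the NR-treated male controls, at 59.3–160 CPM, overlapped the Alport mice, and its bearing on the male calls was not tested.

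*Aldh1a1* went from 21.6, 19.9, 28.4 and 24.8 CPM on vehicle to 152, 143, 162 and 131 CPM on NR in male controls, 6.26-fold higher (log2FC 2.65 ± 0.13, edgeR adjusted p = 1.16e-05). In female controls it went from 23.7, 35.6, 40.0 and 26.6 CPM to 89.0, 54.6, 100 and 98.6 CPM, 2.70-fold higher (log2FC 1.43 ± 0.20, adjusted p = 0.00249). No NR-treated mouse overlapped a vehicle-treated one, and the lowest was female control replicate 2 at 54.6 CPM. *Aldh1a7* rose by less, from 29.7, 23.3, 35.9 and 35.3 to 67.0, 74.9, 87.5 and 70.6 CPM in males (log2FC 1.28 ± 0.14, adjusted p = 0.00260). In females *Aldh1a7* was at 17.2, 21.7, 22.3 and 13.9 CPM with vehicle and at 36.6, 23.2, 38.1 and 35.5 CPM with NR (log2FC 0.82 ± 0.17, edgeR adjusted p = 0.0193). The female call was lost without NR-treated female control replicate 1, 3 or 4 (adjusted p = 0.0563, 0.0583 and 0.0508).

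The 2 near copies did not keep a fixed ratio. The ratio of *Aldh1a1* to *Aldh1a7* counts was 0.768 ± 0.0681 on vehicle and 1.97 ± 0.202 on NR in male controls (SD, n = 4), and 1.68 ± 0.234 and 2.55 ± 0.189 in female controls. In both sexes every NR-treated control had a higher ratio than every vehicle-treated one. How reads that match both were assigned is not given in the sources used here.

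*Cyp26b1* was at 12.4, 5.68, 20.8 and 6.04 CPM on vehicle and at 75.4, 22.1, 76.1 and 36.2 CPM on NR in male controls, 4.73-fold higher (log2FC 2.24 ± 0.49, edgeR adjusted p = 0.0336). In female controls it fell from 27.2, 19.3, 52.2 and 59.8 CPM to 11.1, 7.12, 12.4 and 17.3 CPM, 3.31-fold lower (log2FC −1.73 ± 0.34, adjusted p = 0.0141). The groups did not overlap in either sex. The male call was lost in 5 of the 8 fits that left out 1 mouse, those without vehicle-treated male control replicates 1, 2 or 4 or NR-treated replicates 1 or 3 (adjusted p = 0.0800–0.103), and the female call held in all 8. With all 32 mice in 1 fit, which called 18 genes in female controls, the female *Cyp26b1* and *Aldh1a7* changes did not pass (adjusted p = 0.272 and 0.269).

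*Rarb* moved with the same signs. Vehicle-treated male controls had 6.70, 6.58, 6.31 and 7.38 CPM and NR-treated ones 12.1, 7.91, 11.6 and 11.8 CPM (log2FC 0.70 ± 0.15, edgeR adjusted p = 0.0341), with replicate 2 the lowest of the NR-treated mice. Vehicle-treated female controls had 10.3, 10.7, 14.0 and 14.2 CPM and NR-treated ones 9.10, 8.97, 10.3 and 11.3 CPM, which was not called (log2FC −0.32 ± 0.14, adjusted p = 0.191). In males *Aldh1a2* went from 1.22, 2.27, 1.82 and 1.76 to 5.36, 6.41, 4.53 and 2.47 CPM (log2FC 1.41 ± 0.31, adjusted p = 0.0351). It stayed far below the 29.0–45.7 CPM of vehicle-treated male Alport mice. The male calls were lost in 6 (*Rarb*) and 7 (*Aldh1a2*) of the 8 fits without 1 mouse, with adjusted p up to 0.105 and 0.108; the calls held for both only without NR-treated male control replicate 4, and for *Rarb* also without replicate 2. In female controls *Aldh1a2* had log2FC −0.18 ± 0.30 (edgeR adjusted p = 0.776), with 2.74–8.98 CPM on vehicle and 4.18–6.09 CPM on NR.

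Differences between the sexes in the NR response of controls were tested after these values had been seen. The edgeR interaction (female minus male, 16 mice) called 3 of 7 genes, each negative, where 0.683% of 15379 genes were called (0.364% positive and 0.319% negative). It was −3.96 ± 0.66 for *Cyp26b1* (adjusted p = 0.0167), −1.20 ± 0.26 for *Aldh1a1* (adjusted p = 0.0455) and −1.004 ± 0.21 for *Rarb* (adjusted p = 0.0399). The *Cyp26b1* interaction held in all 16 fits that left out 1 mouse, and those of *Aldh1a1* and *Rarb* were lost in 12 of 16 each, with adjusted p up to 0.115 and 0.102. Fitting all 32 mice together gave none of the 3 (adjusted p = 0.0762, 0.207 and 0.101 in the same order), and limma-voom called *Cyp26b1* alone.

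*Dhrs3* was not called with NR in male or female controls (log2FC 0.54 ± 0.18 and 0.14 ± 0.08), and neither was *Aldh1a3* (0.82 ± 0.38 and 0.10 ± 0.31). *Dhrs3* in male controls was at 125, 125, 188 and 136 CPM on vehicle and at 247, 190, 234 and 156 CPM on NR, with overlap (edgeR adjusted p = 0.106), and without NR-treated replicate 4 it was called (adjusted p = 0.0270). Replicate 4 was the lowest NR-treated mouse, and the other 7 fits without 1 mouse gave no call. *Rbp4* had 1–2 counts on vehicle and 3–11 counts on NR in male controls and was below the filter.

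Cell type markers were also examined with NR in controls, without a test of the difference between the sexes. In males 5 of 10 fibroblast, 3 of 6 tubule injury and 6 of 7 endothelial markers were higher, with a summed fibroblast level of 124–143 CPM on vehicle and 163–244 CPM on NR. In females none of these 3 lists had a called gene, and the fibroblast sum was 159–253 and 186–226 CPM. Of 9 proximal tubule markers 1 was lower in each sex. Their sum in males was 17820–20293 CPM on vehicle and 12453–17668 CPM on NR, without overlap. In females it was 14107–17195 and 14641–17920.5 CPM, with overlap. Of 8 distal nephron markers 1 was higher and 1 lower in females. No podocyte or immune marker was called in either sex. The part of these markers in the changes of the retinoid genes was not tested.

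Of the other retinoid genes, 4 were higher and 1 lower with NR of 39 tested in male controls (12.8%, against 4.53% of all genes), and 3 were higher and none lower of 41 in female controls (7.32%, against 6.18%). *Retsat* rose in both sexes, from 341 ± 77.8 to 969 ± 287 CPM in males (log2FC 1.52 ± 0.23, edgeR adjusted p = 0.0102) and from 364 ± 70.0 to 664 ± 75.1 CPM in females (SD, n = 4; log2FC 0.86 ± 0.13, adjusted p = 0.00322). In males *Dhrs7* (0.75 ± 0.14), *Rdh11* (0.65 ± 0.10) and *Lrat* (0.58 ± 0.14) were also higher, and in females *Dhrs4* (0.50 ± 0.07). *Adh1*, an alcohol dehydrogenase that oxidises retinol, fell in males (log2FC −0.75 ± 0.18, edgeR adjusted p = 0.0449) and rose in females (0.53 ± 0.12, adjusted p = 0.0292), and its interaction with sex was called (1.28 ± 0.24, adjusted p = 0.0273). *Stra6* had log2FC 1.48 in male and −1.48 in female controls, neither called (edgeR adjusted p = 0.0710 and 0.0827).

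In Alport mice on NR, *Aldh1a1* and *Cyp26b1* lay above vehicle without overlap in both sexes, but the female *Aldh1a1* change alone was called. In females edgeR called 1 of 8 genes, where 0.477% of 15712 genes were called (0.388% higher and 0.0891% lower), and 4 of 8 did not overlap, against 9.18% of all genes (5.14% higher and 4.05% lower). In males it called 0 of 8 and 0% of 15500 genes. At an unadjusted p under 0.05 there were 785 genes in males, DESeq2 called 62 genes and limma-voom 0, and 2 of the 8 genes did not overlap, against 3.42% of all genes (1.97% higher and 1.45% lower). Without NR-treated male Alport replicate 1, edgeR called 380 genes, 4 of the 8 among them.

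*Aldh1a1* went from 31.0, 36.9, 23.9 and 28.0 CPM to 88.4, 79.1, 101 and 153 CPM in female Alport mice, 3.54-fold higher (log2FC 1.82 ± 0.21, edgeR adjusted p = 0.00932). In male Alport mice it went from 44.3, 29.0, 53.9 and 47.7 CPM to 113, 130, 190 and 117 CPM, also without overlap (log2FC 1.64 ± 0.23, adjusted p = 0.252). The female call was lost without vehicle-treated female Alport replicate 1 or 4 (adjusted p = 0.0531 and 0.0512). The male difference was called without NR-treated replicate 1 (adjusted p = 0.0261), by DESeq2 (8.34e-08) and with all 32 mice in 1 fit (0.000132). With NR, Alport mice had *Aldh1a1* levels that overlapped those of NR-treated controls of their sex, at 113–190 and 131–162 CPM in males and 79.1–153 and 54.6–100 CPM in females.

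*Aldh1a7* in female Alport mice was at 16.6, 18.1, 12.96 and 15.0 CPM on vehicle and at 34.0, 25.6, 39.5 and 83.3 CPM on NR, with no overlap (log2FC 1.55 ± 0.32, edgeR adjusted p = 0.0873). Replicate 4 was the highest of the NR-treated mice, and without it the difference was 1.08 and called (adjusted p = 0.0181). It was also called without NR-treated replicate 2 (log2FC 1.74, adjusted p = 0.0482). In males *Aldh1a7* was at 29.7, 25.8, 33.6 and 46.4 CPM on vehicle and at 41.7, 59.3, 103 and 65.5 CPM on NR (log2FC 0.98 ± 0.28, adjusted p = 0.799), and the groups overlapped. Without NR-treated male replicate 1, the lowest of its group, it was called (log2FC 1.15, edgeR adjusted p = 0.0477), and the other 7 fits gave no call.

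*Cyp26b1* was at 8.28, 15.2, 3.12 and 18.2 CPM on vehicle and at 24.1, 61.3, 77.4 and 88.2 CPM on NR in female Alport mice (log2FC 2.502 ± 0.53, edgeR adjusted p = 0.0890). In male Alport mice it was at 6.76, 2.15, 5.27 and 7.84 CPM on vehicle and at 10.9, 34.4, 69.1 and 14.4 CPM on NR (log2FC 2.54 ± 0.62, adjusted p = 0.685). Both sexes showed no overlap and a wide spread among NR-treated mice. Leaving out NR-treated replicate 1, the lowest of its group in each sex, gave a call in both (log2FC 2.77 in females and 2.83 in males, edgeR adjusted p = 0.0383 and 0.0431). Removing the lowest NR-treated mouse raises the difference by construction. The other 7 fits without 1 mouse gave no call in either sex.

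In females the *Cyp26b1* log2FC with NR was −1.73 in controls and 2.502 in Alport mice, but the difference did not pass the test. The NR by genotype interaction was 4.22 ± 0.69 (Alport minus control, edgeR adjusted p = 0.0656), with 0% of 16064 genes called. The smallest adjusted p of any gene was 0.0501, 1521 genes had an unadjusted p under 0.05, and DESeq2 called 30 genes and limma-voom 0. DESeq2 gave *Cyp26b1* an adjusted p of 0.0003, and edgeR called it without female Alport NR replicate 1 (adjusted p = 0.0209). That mouse was the lowest of its group, so leaving it out raises the interaction by construction. The other 15 fits without 1 mouse gave no edgeR call. The male interaction was 0.28 ± 0.83 (edgeR adjusted p = 0.945).

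*Rarb* in female Alport mice was at 9.18, 9.42, 9.91 and 10.2 CPM on vehicle and at 15.1, 14.3, 15.7 and 10.2 CPM on NR (log2FC 0.52 ± 0.14, edgeR adjusted p = 0.146). Replicate 4 of the NR-treated mice was level with the vehicle group, and without it the difference was 0.64 and called (edgeR adjusted p = 0.0244). The other 7 fits without 1 mouse gave no call. In males *Rarb* gave log2FC 0.08 ± 0.18. *Dhrs3* was at 99.2, 110, 89.2 and 104 CPM on vehicle and at 120, 135, 181 and 120 CPM on NR in females, above all vehicle-treated mice but not called (log2FC 0.48 ± 0.14, adjusted p = 0.171), and males gave 0.50 ± 0.18 with overlap.

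*Aldh1a2* and *Aldh1a3* were not called with NR in Alport mice. *Aldh1a2* in males was at 35.1, 45.7, 33.6 and 29.0 CPM on vehicle and at 52.2, 15.7, 11.8 and 19.3 CPM on NR (log2FC −0.55 ± 0.41). The value of 52.2 CPM belonged to replicate 1, the library with the highest summed fibroblast level. Without replicate 1 *Aldh1a2* was lower and called (log2FC −1.21, edgeR adjusted p = 0.0321). So was the NR by genotype interaction in males (−2.61, edgeR adjusted p = 0.00286, against −1.97 and 0.400 with all mice). Removing the highest NR-treated mouse lowers the difference by construction. The other 7 fits without 1 mouse gave no call, and neither did the other 15 interaction fits. In females *Aldh1a2* was at 40.5, 21.8, 56.5 and 27.003 CPM on vehicle and at 28.2, 36.6, 20.6 and 7.94 CPM on NR (log2FC −0.64 ± 0.42, adjusted p = 0.455). NR-treated female replicate 4, the lowest, also had the lowest fibroblast sum of its group, 351 CPM against 491–1092 CPM in the other 3. This mouse had the lowest immune sum as well, 67.5 CPM. Other mice did not pair this way. In NR-treated males replicate 3 had the lowest *Aldh1a2*, while replicate 2 had the lowest fibroblast sum (469 and 418 CPM). In vehicle-treated male Alport mice replicate 3 had the highest fibroblast sum, 1607 CPM, with 33.6 CPM of *Aldh1a2*. Replicate 2 had 1280 and 45.7 CPM. The part of these markers in the *Aldh1a2* values was not tested. *Aldh1a3* gave log2FC −0.27 ± 0.44 in males and −0.29 ± 0.25 in females.

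The 16 controls had a fibroblast sum of at most 253 CPM and at most 8.98 CPM of *Aldh1a2*, and the 16 Alport mice had at least 351 and 7.94 CPM. *Rbp4* had 5–10 counts in NR-treated against 11–26 in vehicle-treated male Alport mice (edgeR adjusted p = 0.939). In females it had 7–19 counts on NR and 1–20 on vehicle.

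**Figure D4:**
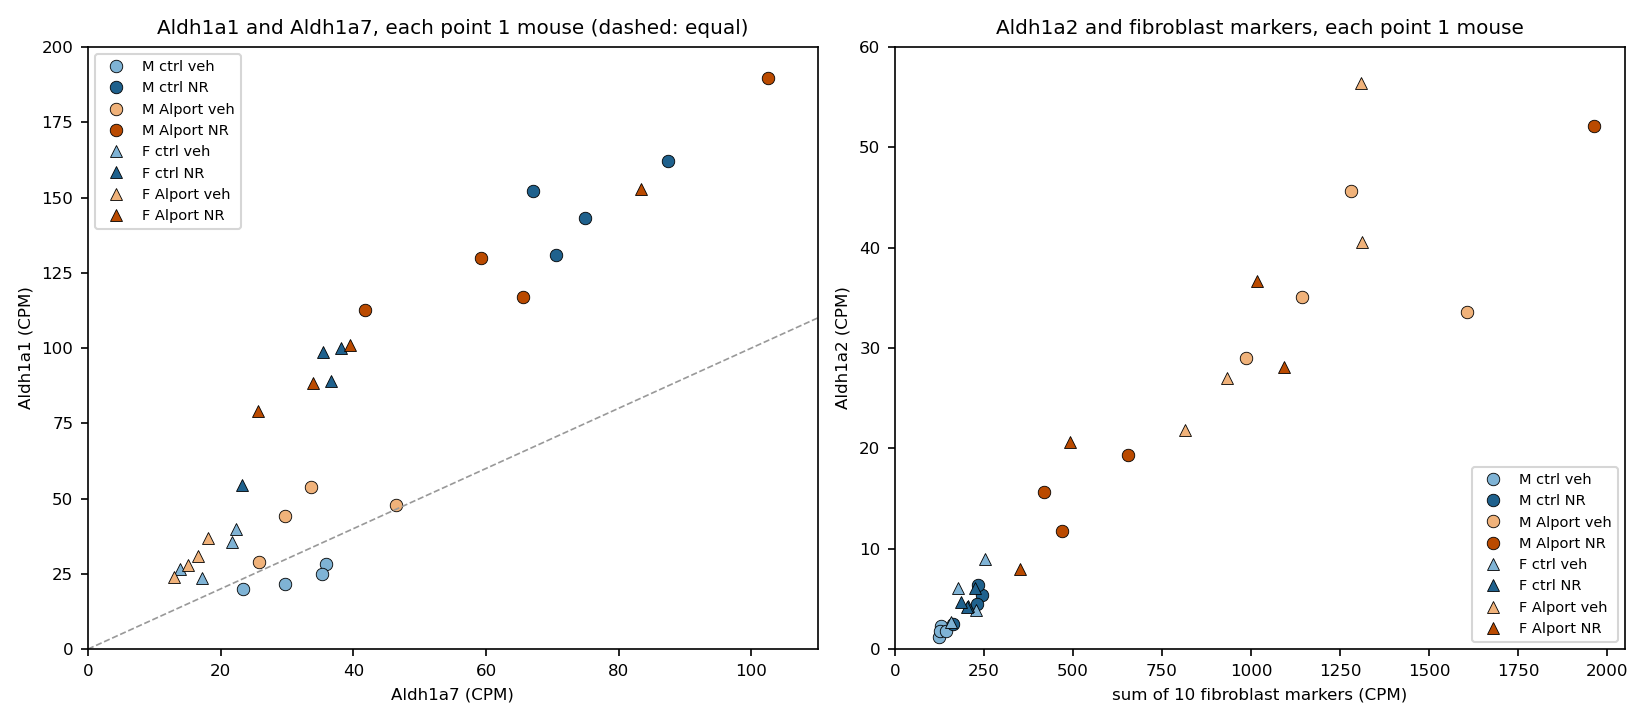
Left, CPM of *Aldh1a1* against *Aldh1a7* in each of 32 mice (dashed line, equal values); right, CPM of *Aldh1a2* against the summed CPM of 10 fibroblast markers. At left, all mice lie above the line except the vehicle-treated male controls (ratios of *Aldh1a1* to *Aldh1a7* of 0.702–0.853). NR-treated mice of both genotypes lie above the vehicle-treated mice of their sex for *Aldh1a1*, while *Aldh1a7* overlaps in male Alport mice (41.7–103 against 25.8–46.4 CPM). At right, NR-treated male Alport replicate 1 (1963 and 52.2 CPM) lies apart from its group.

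With NR in Alport females, 1 of 42 other retinoid genes tested was called (2.38%, against 0.477% of all genes). It was *Retsat*, rising from 159 ± 47.5 to 516 ± 181 CPM (SD, n = 4; log2FC 1.70 ± 0.28, edgeR adjusted p = 0.0304). In males, where edgeR called 0% of all genes, *Retsat* had means of 159 ± 27.4 and 481 ± 210 CPM. *Stra6*, high in Alport mice, was not called with NR in males or females (log2FC −1.01 and −1.66, edgeR adjusted p = 0.939 and 0.0885). No single cell type marker was called with NR in Alport mice of either sex. In females the summed levels of 6 tubule injury markers (382–763 CPM on vehicle and 146–377 CPM on NR) and of 7 endothelial markers (376–421 and 458–579 CPM) did not overlap, and their part in the retinoid gene values was not tested.

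The female and male vehicle-treated controls differed in 4 of 7 retinoid genes, 3 higher and 1 lower in females, where 31.7% of 14990 genes were called (15.9% higher and 15.8% lower), and 3 of 7 did not overlap, against 32.2% of all genes (14.2% higher and 18% lower). *Aldh1a2* was 3.10-fold higher in females (log2FC 1.63 ± 0.35, edgeR adjusted p = 0.00420), *Cyp26b1* 3.61-fold higher with overlap (1.85 ± 0.43, adjusted p = 0.00664), and *Rarb* 1.86-fold higher (0.89 ± 0.14, adjusted p = 0.000520). *Aldh1a7* was 1.62-fold lower in females (log2FC −0.70 ± 0.16, adjusted p = 0.00754), and its near copy *Aldh1a1* was not called (0.44 ± 0.16, adjusted p = 0.0602). The *Aldh1a7* call was lost with all 32 mice in 1 fit (adjusted p = 0.0686), and DESeq2 called *Aldh1a1* (adjusted p = 0.0359). Female controls also had 7 of 10 fibroblast, 5 of 6 podocyte, 3 of 6 tubule injury, 3 of 7 endothelial and 3 of 8 distal nephron markers higher, and 1 of 9 proximal tubule markers higher and 3 lower, and their part in the retinoid gene differences was not tested. Of 41 other retinoid genes 8 were higher and 9 lower in females, among them the alcohol dehydrogenases *Adh7* (log2FC −3.02 ± 0.27) and *Adh1* (−1.81 ± 0.13), and *Stra6* (1.68 ± 0.41) and *Rdh19* (1.89 ± 0.38) in the other direction. *Dhrs7* (0.93 ± 0.10), *Lrat* (0.52 ± 0.17) and *Scarb1* (0.45 ± 0.09) were also higher, and *Bco2* (−0.84 ± 0.08), *Ttr* (−0.48 ± 0.11), *Rxra* (−0.40 ± 0.08) and *Aldh8a1* (−0.35 ± 0.06) lower.

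Within groups, the retinoid genes varied together in some pairs. With each mouse expressed as its deviation from the mean log2 CPM of its group, 4 of 28 pairs of genes were correlated over the 32 mice at an adjusted p under 0.05 (permutation test with 100000 resamples, two-sided). The share of other gene pairs that pass was not measured, so the count does not set the retinoid genes apart. *Aldh1a1* and *Aldh1a7* had Pearson r = 0.85 and Spearman rho = 0.880 (permutation p = 1e-05 for both, the smallest that the resamples can give, and adjusted p = 0.00028 for both). Without the 2 mice farthest from the *Aldh1a1* median r was 0.848, and the extremes of *Aldh1a7* were not looked for. These 2 genes share stretches of sequence, and their deviations come from the same libraries. *Aldh1a1* and *Cyp26b1* had r = 0.612 and rho = 0.560 (permutation p = 0.00079 and 0.00287, adjusted p = 0.0111 and 0.0402), and r was 0.561 without the 2 mice farthest from the *Aldh1a1* median. *Aldh1a3* and *Rarb* (r = 0.575) and *Aldh1a2* and *Aldh1a7* (r = −0.610) passed by Pearson's r and not by Spearman's rho (permutation adjusted p = 0.0339 and 0.0495 against 0.0524 and 0.190). The r of the last pair was −0.408 without the 2 mice farthest from the *Aldh1a2* median.

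Among 12773 genes with a mean of at least 1 log2 CPM, likeness to a member was taken as Pearson's r of the 8 group means. *Aldh1a2* was closest to *Map7d1* and *Col18a1* (r = 0.998 for both), the second of which encodes a basement membrane collagen, and *Aldh1a3* to *Trp53i11* (0.998) and *Lgals9* (0.997). *Aldh1a1* was closest to the ribosomal protein genes *Rpl10* (0.981) and *Rplp2* (0.972), and *Aldh1a7* to *Blvrb* (0.982) and *Aprt* (0.969). *Dhrs3* was closest to *Igfbp1* (0.980) and *Ppp2r3a* (0.978), *Cyp26b1* to *Usp53* (0.976) and *Clcn6* (0.971), *Rarb* to *Dvl2* (0.947) and *Hic2* (0.932), and *Rbp4* to *Pcdhga8* (0.972) and *Chst2* (0.963). With 8 points chosen from so many genes these values describe a pattern over groups and carry no test.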

How the data were processed

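Kidney cortex RNA was isolated on Qiagen RNeasy columns and sequenced by Genewiz from poly-A selected NEBNext Ultra II libraries. The authors processed the reads with BioJupies and deposited a table of raw counts per gene symbol and mouse, on mm10 per the submitters' processing notes; the aligner, annotation and strand setting are not given in the sources used here. A second deposited table holds log10 values of CPM + 1, which match the counts and were not tested. Genes were fitted with edgeR 4.0.16 in R 4.3.3 (quasi-likelihood F test, TMM scaling, filterByExpr with a minimum count of 10), 1 fit per comparison, with Benjamini-Hochberg adjustment over all genes and a threshold of 0.05. The SE is the log2FC divided by the square root of F. Interactions used 16 mice each. DESeq2 1.42.0, limma-voom (limma 3.58.1), RLE scaling, other filters, 1 fit of all 32 mice, a replicate block and leaving out each mouse were the alternatives.

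Library totals ran from 16621944 to 27778797 counts (median 22071395) over 32544 genes, 7938 of them at 0 throughout. Replicates were compared by chi-square over genes, and each of the 48 within-group pairs exceeded counting noise (lowest value 7.96 for a degree of freedom). Each mouse was therefore 1 replicate. The edgeR script was tested on simulated data. Gene coordinates come from GENCODE M21 and promoter windows from RefSeq, both of GRCm38, the build of the deposited data; coding sequences were aligned with Biopython 1.88. The members and gene lists were chosen with earlier results of these data known. Named are the 8 members, the 4 called genes with the largest change of each other retinoid list in a comparison (for Alport against control, given in both sexes), and the 2 nearest genes of each member; *Stra6* and *Retsat* are also given where they were not called, and *Col4a3* as the targeted gene. Interactions of sex and NR were added after values were seen. Some genes that the rule would name are not reported here.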

Additional observations from a re-analysis of the deposited data

Results flagged for a closer look

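In NR-treated male controls, *Rarb* replicate 2 (7.91 CPM) lay apart below the other 3 mice (11.6–12.1 CPM). In NR-treated male Alport mice, *Rarb* replicate 3 (11.2 CPM) lay apart above the other 3 (9.22–9.37 CPM). Of the 64 groups of 4 values examined (8 genes in 8 groups) these 2 were flagged by the gap to the nearest mouse, and chance flags about 5% of groups. The response of controls to NR differed between the sexes by the edgeR interaction test for *Cyp26b1* (−3.96 on the log2 scale, female minus male), *Aldh1a1* (−1.20) and *Rarb* (−1.004), a test that was added after the values were seen.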

How the results depend on the processing

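Of the 26 called fold changes of the 8 genes, 16 stayed called under every alternative that tested the gene, and none reversed. The 26 include *Rbp4* in vehicle-treated male Alport mice, whose call rests on the filter passed through the Alport group. A filter of at least 10 counts in every mouse leaves *Rbp4* untested there. Over all fold changes, 1528 of 1668 alternatives gave the same direction and call, 59 lost a call, 41 gained one and 40 reversed the sign. The counts of genes called are not among the 1668. The number of genes called with NR in male Alport mice was 0, and 2 with DESeq2 and with all 32 mice in 1 fit. In female Alport mice it was 1, and 4 with DESeq2 and 3 with all 32 mice or without the low-count filter. In female controls it was 3, and 1 with all 32 mice. For the sex by genotype interaction it was 0, and 2 with DESeq2. For the NR by genotype interaction in females it was 0, and 1 with DESeq2 or without the filter. For the sex by NR interaction in controls it was 3, and 1 with limma-voom and 0 with all 32 mice. The causes were not tested. The labels do not say whether replicate numbers pair the mice, and the main fits did not pair them. In 28 pairs of same-numbered mice the correlations of deviations from the group means ran from −0.137 to 0.205, 5 over 0.1. With no reference for such values, they cannot settle whether the mice are paired. With a replicate block the count in NR-treated male controls was 3 in place of 5, and no other count moved by over 1.5 times.

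Leaving out each mouse in turn gave counts, with *Rbp4* included, of 6–7 in male and 4–5 in female Alport mice on vehicle, 0–4 and 0–3 with NR in male and female Alport mice, 2–6 and 2–3 with NR in male and female controls, 4–5 for sex, 0–0 for sex by genotype, 0–2 and 0–1 for NR by genotype in males and females, and 1–4 and 0–0 for sex by NR in controls and Alport mice. The 4 calls in male Alport mice came without NR-treated replicate 1.

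Uncalled log2 fold changes that crossed 0 when a mouse was left out were *Aldh1a1* in female Alport mice on vehicle (−0.17 to 0.11), *Aldh1a3* (−0.57 to 0.13) and *Rarb* (−0.017 to 0.25) with NR in male Alport mice, *Rbp4* with NR in female Alport mice (−0.16 to 0.47), *Aldh1a2* (−0.40 to 0.19) and *Aldh1a3* (−0.087 to 0.32) with NR in female controls, *Dhrs3* between the sexes (−0.093 to 0.13), *Dhrs3* (−0.23 to 0.072) and *Cyp26b1* (−0.42 to 0.57) for NR by genotype in males, *Rbp4* for NR by genotype in females (−1.33 to 0.0022), and for sex by NR in Alport mice *Dhrs3* (−0.18 to 0.14), *Aldh1a1* (−0.053 to 0.37), *Aldh1a2* (−0.41 to 0.54), *Aldh1a3* (−0.42 to 0.25) and *Cyp26b1* (−0.38 to 0.66). With limma-voom, *Cyp26b1* was −0.0054 for NR by genotype in males and 0.36 for sex by NR in Alport mice. Depth limits *Rbp4*, with 0–26 counts per library, and *Aldh1a3*.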
